A study of Homo sapiens with 12 samples.

Results

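The 7 genes described here are the cytokines IL1A, IL1B, IL18 and IL24, the receptor antagonist IL1RN and the receptor chains IL1R1 and IL1RAP, out of 24331 features in the expression table. They were chosen by name, as members of the IL1 family together with IL24, with their FPKM in these 12 libraries already known, so their values are given as a description and without a test. Each name matched 1 feature. FPKM scales the fragments of a gene to the length of its transcript and to the mapped fragments of the library, and so is a level per unit of length. MDA-MB-231, a mesenchymal breast cancer cell line, was compared as wild type (WT) with cells labelled KO (CRE deleted), called ΔCRE below. In ΔCRE cells a part of a core-regulatory element (CRE) of the ETS1 promoter, with binding sites for NFAT and NF-kB, had been removed with CRISPR/Cas9. The authors report conserved motifs for these factors in the part of the CRE that remained. Cells of each genotype were collected at 0 h, labelled mock in the design, and after 6 h and 24 h with PMA, an activator of protein kinase C, and Ionomycin, a calcium ionophore. Each of the 6 groups had 2 libraries, described as biological replicates. The methods state that deleted clones were screened, and not how many clones the ΔCRE libraries stand for, so a difference between genotypes and a difference between clones cannot be told apart.

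IL1 alpha and IL1 beta, the products of IL1A and IL1B, bind the receptor IL1R1, which then takes up IL1RAP as its second chain and signals through MYD88, IRAK kinases and TRAF6 to NF-kB and MAP kinases. IL1RN encodes the antagonist that occupies IL1R1 without recruiting IL1RAP, and IL18 is a relative of IL1 beta that is stored as a precursor and cut by caspase-1. IL24 belongs to the IL10 family, signals through receptors that contain IL20RB with IL20RA or IL22RA1, and activates STAT3. All of these are measured here as transcripts, and neither cleavage nor secretion of the proteins was measured.

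In WT, IL1A, IL1B and IL24 were higher in every stimulated library than in every 0 h library. The sequence around the annotated starts of these 3 genes is shown. Their course was not the same, since from 6 h to 24 h IL1A and IL1B rose further in WT and IL24 fell. Each line holds 250 bases before and 50 bases after a RefSeq start (assembly GRCh38.p14, whereas the expression table used hg19), read 5′ to 3′ on the strand of the gene. The lines are IL1A at chr2:112784444-112784743 on the minus strand (start 1 of 2), IL1B at chr2:112836730-112837029 on the minus strand, and IL24 at chr1:206897193-206897492 on the plus strand. Capitals mark matches, on either strand, to AP-1 (TGANTCA), NF-kB (GGG and TTCC with 3 bases between them), the NFAT core (GGAAAA), the ETS core (GGAAG) and the TATA box (TATAAA).
IL1A: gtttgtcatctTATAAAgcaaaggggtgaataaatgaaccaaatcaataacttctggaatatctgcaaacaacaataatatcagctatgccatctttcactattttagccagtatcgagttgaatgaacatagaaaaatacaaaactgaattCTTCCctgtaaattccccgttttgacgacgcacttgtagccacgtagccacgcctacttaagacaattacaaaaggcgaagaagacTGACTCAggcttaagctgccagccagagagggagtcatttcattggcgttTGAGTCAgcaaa
IL1B: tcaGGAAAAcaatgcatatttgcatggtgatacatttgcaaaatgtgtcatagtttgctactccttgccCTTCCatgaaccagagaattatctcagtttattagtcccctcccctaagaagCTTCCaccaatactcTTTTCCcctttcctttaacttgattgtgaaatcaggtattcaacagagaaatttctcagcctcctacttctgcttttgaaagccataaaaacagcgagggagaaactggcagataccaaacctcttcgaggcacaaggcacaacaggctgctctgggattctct
IL24: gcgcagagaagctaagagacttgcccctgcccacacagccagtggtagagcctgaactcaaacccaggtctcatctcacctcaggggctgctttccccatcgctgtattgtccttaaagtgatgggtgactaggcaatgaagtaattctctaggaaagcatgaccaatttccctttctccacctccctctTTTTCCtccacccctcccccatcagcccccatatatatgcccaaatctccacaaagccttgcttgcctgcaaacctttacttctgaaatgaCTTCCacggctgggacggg
The IL1A window held 2 AP-1 matches, 1 ETS core and 1 match to the TATA letters, at -239 to -234 from the start. The window of IL1A start 2 held no match to the TATA letters. Only exact matches were marked. The IL1B window held 2 NFAT cores and 2 ETS cores, and the IL24 window held 1 of each. No matches overlapped in these windows, and none of the windows held the NF-kB letters. Among 35116 windows of the same length, 7.71% held AP-1, 6.52% NF-kB, 24.05% the NFAT core, 71.9% the ETS core and 11.5% the TATA box. The motifs were picked after the windows had been seen, and a match describes letters and not a bound site. Of the 7 genes 6 had an entry, with 12 windows in all, and IL18 had none.

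The library labelled ΔCRE 0 h replicate 1 stood apart and is shown apart throughout. Its FPKM summed to 1423335, against 566255 to 651080 in the other 11 libraries, and its correlation with the second ΔCRE 0 h library over log values was 0.867, against 0.978 to 0.984 between the libraries of every other group. Markers of gut epithelium, 5 genes, summed to 857.6 FPKM there and to 0 to 0.156 elsewhere. The MDA-MB-231 markers VIM, CD44, AXL and CAV1 summed to 1440 FPKM in the library shown apart, and to 1814 to 3119 FPKM in the 11 other libraries. There the 4 epithelial markers summed to 618.9 to 1063 FPKM, with 3 of them at a mean of at least 1 and CDH1 below 0.1 in all 11. The sums were 2.42 to 4.62 for 4 luminal breast markers (ESR1 and PGR below 0.1 in all 11), 0.497 to 2.197 for 6 leukocyte markers (PTPRC, CD3E and ITGAM below 0.1), 1.48 to 3.22 for 4 fibroblast markers (DCN and LUM below 0.1) and 0.162 to 1.79 for 3 endothelial markers. Some members of these lists had a mean of at least 1 FPKM over the 11 libraries. They were GATA3 (2.32) and FOXA1 (1.13) of the luminal list, and PDGFRB (1.23) and COL1A1 (1.20) of the fibroblast list. The file holds no fragment counts. Steps in the low values put the depth of these 11 libraries at 0.730 to 1.19 times that of WT 0 h replicate 1, with the ΔCRE 6 h libraries lowest, and the part of depth in the differences below was not tested. ETS1, the gene whose element was partly deleted, stood at 24.0 and 23.7 FPKM in WT at 0 h, 139.2 and 145.2 at 6 h, and 36.2 and 39.7 at 24 h. In ΔCRE it stood at 16.5 at 0 h (5.08 in the library shown apart), 62.8 and 62.2 at 6 h, and 29.3 and 30.7 at 24 h. In limma, a linear model of log2(FPKM + 1) over all features, ETS1 was lower in ΔCRE at 6 h by a log2 fold change of -1.17 (SE 0.0587, adjusted p 2.04e-05) and at 24 h by -0.33 (adjusted p 0.0153).

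IL1B carried the largest levels of the 7 genes once cells were stimulated. In WT it read 0.737 and 0.453 FPKM at 0 h, 166.9 and 167.0 at 6 h, and 325.8 and 330.5 at 24 h. In ΔCRE it read 0.485 at 0 h (1.35 in the library shown apart), 52.8 and 47.1 at 6 h, and 220.2 and 205.8 at 24 h. The libraries of the 2 genotypes did not overlap at either stimulated time, and every stimulated library lay above every 0 h library. The WT mean at 6 h was 166.96 ± 0.105 (SD, n = 2), 280.6 times the 0 h mean, and the ΔCRE mean was 49.98 ± 4.004 (n = 2), or 29.9% of WT. At 24 h the ΔCRE mean was 213.0 ± 10.2 and the WT mean 328.1 ± 3.31, so that ΔCRE stood at 64.9% of WT. On the log2(FPKM + 1) scale the genotype difference was -1.72 at 6 h and -0.62 at 24 h. From 6 h to 24 h IL1B grew 1.97-fold in WT and 4.26-fold in ΔCRE, and this difference was not tested for a gene chosen with its values known. In these bulk libraries fewer cells expressing a gene and less RNA per cell cannot be told apart. In hg19 IL1B spans chr2:113587337-113594356.

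IL1A, which lies next to IL1B at chr2:113531492-113542971, showed the same order at far lower levels. Its WT libraries held 0 and 0.109 FPKM at 0 h, 0.940 and 0.884 at 6 h, and 1.88 and 2.17 at 24 h. The ΔCRE libraries held 0 at 0 h (0.1499 in the library shown apart), 0.711 and 0.456 at 6 h, and 2.05 and 1.57 at 24 h. The genotypes were apart at 6 h, with ΔCRE at 64.0% of WT, and overlapped at 24 h, with ΔCRE at 89.2%. IL1A was also written as multiples of a step fitted to its values, without adjustment for depth. It counted 47 and 45 in WT at 6 h against 25 and 18 in ΔCRE, so the counting error at 6 h is wide. Few of its values were low enough to set the size of the step, so these counts are uncertain. The 24 h mean of IL1B was above that of IL1A in both genotypes by more than the spread of either.

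IL24 was nearly silent at 0 h and peaked at a different time in the 2 genotypes. In WT it read 0.0396 and 0.0414 FPKM at 0 h, 3.72 and 3.61 at 6 h, and 2.83 and 2.52 at 24 h. In ΔCRE it read 0.0341 at 0 h (0 in the library shown apart), 1.18 and 1.16 at 6 h, and 1.92 and 2.25 at 24 h. Both WT libraries were lower at 24 h than at 6 h, and both ΔCRE libraries were higher. ΔCRE stood at 31.9% of WT at 6 h and at 78.0% at 24 h, without overlap at either time. The value of each of the other 3 libraries at 0 h equals 1 step, the smallest value above 0 that the table can hold for the gene, so no fold over 0 h is given. In steps, whose size differs between libraries with depth, the WT libraries counted 97.7 and 96.3 at 6 h and the ΔCRE libraries 21.8 and 24.0. At 6 h 1 step was worth 0.962 and 0.945 times that of WT 0 h replicate 1 in WT, and 1.37 and 1.22 times in ΔCRE.

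IL24 lies at chr1:207070788-207077484 on the plus strand, and its last exon shares 823 exonic bases with FCMR, listed as FAIM3 in the table, on the minus strand (annotation GENCODE, GRCh37). The table gives both the same locus, which runs to 207095378. The libraries came from a stranded kit and the strand setting of the counting is not stated, so reads of the pair cannot be told apart with certainty. FAIM3, a receptor for IgM, read 0.244 and 0.186 FPKM in WT at 0 h, 1.67 and 1.30 at 6 h, and 1.93 and 1.69 at 24 h. In ΔCRE it read 0.364 at 0 h (0.668 in the library shown apart), 1.52 and 1.30 at 6 h, and 1.30 and 1.397 at 24 h. Its rise in WT passed the limma test at 6 h (log2 fold change 1.03, SE 0.109, adjusted p 0.000135) and at 24 h (1.21, adjusted p 4.16e-05). Between genotypes FAIM3 differed by -0.04 at 6 h (adjusted p 0.865, limma) and by -0.26 at 24 h (adjusted p 0.219), while IL24 differed by -1.10 and -0.25.

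IL18 went the other way, with the highest level of the 7 genes at 0 h and a lower one after stimulation. In WT it read 20.7 and 21.1 FPKM at 0 h, 10.9 and 12.9 at 6 h, and 9.40 and 10.5 at 24 h. In ΔCRE it read 20.1 at 0 h (49.6 in the library shown apart), 15.2 and 16.6 at 6 h, and 12.9 and 13.3 at 24 h. Each stimulated library lay below each 0 h library of its genotype, and ΔCRE lay above WT at both stimulated times, at 133.8% at 6 h and 132.0% at 24 h. At 0 h the ΔCRE library stood at 96.2% of the WT mean. The gene spans chr11:112013974-112034840, and an overlapping gene on the opposite strand shares 0 exonic bases with it.

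The antagonist IL1RN was at or near 0 in all 11 libraries, including those with the highest IL1B. WT libraries were listed at 0 at 0 h and 6 h, and at 0 and 0.0742 FPKM at 24 h. ΔCRE libraries were listed at 0 at 0 h, at 0.04998 and 0 at 6 h, and at 0.0353 and 0.0306 at 24 h. These values equal 2 steps in the WT library and 1 step in each of the 3 ΔCRE libraries, so no difference between groups was detectable. The library shown apart held 7.24 FPKM. IL1RN spans chr2:113875470-113891593.

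IL1R1, the signalling receptor, was low in every library and lower in ΔCRE than in WT at each time. Its WT libraries held 0.688 and 0.542 FPKM at 0 h, 0.325 and 0.251 at 6 h, and 0.672 and 0.650 at 24 h. The ΔCRE libraries held 0.260 at 0 h (0.523 in the library shown apart), 0.116 and 0.147 at 6 h, and 0.327 and 0.283 at 24 h. No ΔCRE library reached the lowest WT library of the same time, and ΔCRE stood at 42.3%, 45.6% and 46.2% of WT at 0, 6 and 24 h. Both genotypes had their lowest values at 6 h. In steps, without adjustment for depth, the 6 h libraries counted 28 and 22 in WT and 7 and 10 in ΔCRE. The step was fitted to these values, so the counts are uncertain. IL1R1 spans chr2:102770402-102796334 and shares 11 exonic bases with the antisense gene IL1R1-AS1.

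The accessory chain IL1RAP, at chr3:190231840-190374986, varied little. In WT it read 2.43 and 3.38 FPKM at 0 h, 3.36 and 4.08 at 6 h, and 3.29 and 3.18 at 24 h. In ΔCRE it read 3.13 at 0 h (1.58 in the library shown apart), 3.52 and 4.01 at 6 h, and 3.39 and 4.04 at 24 h. Each stimulated WT group overlapped WT at 0 h, both WT libraries at 24 h lay below both at 6 h, and the genotypes overlapped at 6 h. At 24 h both ΔCRE libraries lay above both WT libraries, at 114.8% of the WT mean, with an SD of 0.460 in ΔCRE. In WT at 24 h the levels ran from IL1B through IL18 (9.94 ± 0.760 FPKM), IL1RAP (3.23 ± 0.0768), IL24 (2.67 ± 0.219), IL1A (2.03 ± 0.209) and IL1R1 (0.661 ± 0.0158) to IL1RN. No neighbours in that order overlapped in their 2 libraries.

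Both genotypes can be set against the background of all features. At 6 h 3 of the 7 genes (IL1A, IL1B and IL24) were higher in both WT libraries than in both 0 h libraries, as were 27.7% of the 17700 features above 0 in at least 1 of the 11 libraries, and 2 (IL1R1 and IL18) were lower, as were 30.8%. At 24 h the same 3 were higher, with a background of 31.5%, and IL18 was lower, with a background of 30.6%. In ΔCRE against WT at 6 h, 4 genes (IL1A, IL1B, IL1R1 and IL24) were lower in both libraries (background 22.2%) and IL18 was higher (22.5%). At 24 h IL1B, IL1R1 and IL24 were lower (21.9%), and IL1RAP and IL18 were higher (21.5%). The genes were chosen with these values known, and nothing is read from their share. The contrasts share their WT libraries.

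The other genes of these pathways were tested with limma in lists drawn up from textbook knowledge, but with earlier results of these data known. The lists held 98 genes, of which 65 reached the minimum mean of 1 FPKM. Between WT at 6 h and 0 h, 38 of the 65 rose and 7 fell, against 23.3% and 21.1% of 11256 features. Between 24 h and 0 h 36 rose and 8 fell, against 26.5% and 28.2%. Of the genes that rose, 19 at 6 h and 17 at 24 h came from the list inducible by IL1. Nothing is read from these shares. The median log2 fold change of the 65 was 0.37 at 6 h and 0.41 at 24 h, and that of all features was -0.0014 and -0.0204. These p-values rest on 1 estimate of the spread per feature, shared by all 6 groups of the model and moderated with the other features. They do not rest on the spread of the compared groups alone, and no group held more than 2 libraries.

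Among 16 other ligands and receptors of the IL1 family only IL18BP, IL1RAPL1 and SIGIRR passed the minimum. IL33, IL36A and IL1RL2 were listed at 0 in all 11 libraries, and IL1R2, the decoy receptor, reached at most 0.117 FPKM there. IL18R1, the IL18 receptor, reached at most 0.280 and its partner IL18RAP was listed at 0, whereas IL18BP, which neutralises IL18, averaged 2.91 FPKM and differed by -0.06 at 6 h (adjusted p 0.760, limma). SIGIRR, an inhibitory receptor of the family, read 2.08 and 2.14 FPKM in WT at 0 h, 1.65 and 1.87 at 6 h, and 4.22 and 3.42 at 24 h. In ΔCRE it read 1.04 at 0 h (25.8 in the library shown apart), 0.501 and 0.356 at 6 h, and 1.20 and 1.59 at 24 h. It was the 1 gene of this list called between genotypes, lower in ΔCRE by -0.95 at 6 h (SE 0.1205, adjusted p 0.00285, limma) and by -1.01 at 24 h (adjusted p 0.00286). Both calls held without any 1 of the 11 libraries, with a highest adjusted p of 0.0314 in limma.

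Of 17 signalling genes of the IL1 receptor 16 were tested, and in WT 6 rose and 2 fell at 6 h and 6 rose and 3 fell at 24 h. IRAK2, a kinase of the receptor complex, rose most, by 2.47 at 6 h (SE 0.0648, adjusted p 3.07e-08, limma), and at 24 h still by 1.90 (adjusted p 2.25e-07). IKBKB, a kinase that releases NF-kB, rose by 0.72 and 0.82, and TOLLIP, an adaptor, by 0.44 at 6 h. At 24 h TAB2, an adaptor of the kinase MAP3K7, fell by 0.48 (adjusted p 0.00768, limma) and CHUK, a kinase partner of IKBKB, by 0.36 (adjusted p 0.0110), and each call was lost without 2 libraries in turn (adjusted p up to 0.0605 and 0.0796, both without WT 24 h replicate 1). The ubiquitin ligase PELI1 fell by 0.43 at 6 h and by 0.32 at 24 h, and both calls were lost without WT 0 h replicate 2 or replicate 2 of the stimulated WT group (adjusted p up to 0.185, limma). At 6 h IKBKB and the adaptor MYD88 were lower in ΔCRE, by -0.43 (adjusted p 0.0101, limma) and -0.33 (adjusted p 0.0297), and at 24 h IKBKB was lower by -0.41 (adjusted p 0.0176). Leaving out the 11 libraries in turn ended the IKBKB call at 6 h in 3 cases (adjusted p up to 0.0742 without WT 6 h replicate 1, limma) and at 24 h in 4 (up to 0.117 without WT 24 h replicate 1), while its difference stayed at -0.44 to -0.42 and at -0.42 to -0.41. For MYD88 at 6 h it ended the call in 7 cases (adjusted p up to 0.160 without WT 6 h replicate 1, limma), with differences of -0.43 to -0.23.

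For maturation and release, 10 of 16 genes were tested, and in WT 4 rose and 2 fell at 6 h and 6 rose and 1 fell at 24 h. CASP4, an inflammatory caspase, rose by 0.86 at 6 h (SE 0.0574, adjusted p 9.16e-06, limma), then by 1.84 at 24 h (adjusted p 1.33e-07). NINJ1, a membrane-rupture protein, rose by 0.93 at 6 h, and NLRP1, an inflammasome sensor, by 0.94 at 24 h. The protease CAPN2 fell by 0.21 and 0.60. In ΔCRE at 6 h NLRP1 was lower by -0.43 (adjusted p 0.00762, limma) and CASP4 by -0.27 (adjusted p 0.0206), and no gene of the list passed at 24 h, with 2 at an unadjusted p under 0.05 in limma. The NLRP1 call was lost without WT 6 h replicate 1 (adjusted p 0.0643, limma) and the CASP4 call without any 1 of the 4 libraries at 6 h (adjusted p up to 0.128). CASP1, NLRP3 and PYCARD had a mean under 1 FPKM and were not tested, and their values, picked out after they were seen, are a description. NLRP3, an inflammasome sensor, read 0.0622 and 0.0926 FPKM in WT at 0 h, 1.28 and 0.914 at 6 h, and 0.599 and 0.691 at 24 h, while in ΔCRE it was listed at 0 at 0 h, at 0 and 0.0379 at 6 h, and at 0 and 0.0724 at 24 h. CASP1 read 0.191 and 0.322 FPKM in WT at 0 h, 0.1396 and 0.293 at 6 h, and 1.47 and 1.55 at 24 h, while in ΔCRE it read 0.216 at 0 h, 0 and 0.151 at 6 h, and 0.388 and 0.531 at 24 h. PYCARD, the adaptor between them, ranged from 0 to 0.367 FPKM over the 11 libraries. The library shown apart held 269.98 FPKM of PYCARD, 41.2 of CASP1 and 0.0936 of NLRP3.

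Among relatives, receptors and signalling genes of IL24, 7 of 15 were tested, with 4 rising and 2 falling in WT at 6 h and 3 rising and 1 falling at 24 h. IL20, IL22 and IL26 were listed at 0 in all 11 libraries, and IL10 and IL19 reached at most 0.116. IL20RB averaged 1.17 FPKM, IL22RA1 0.746, IL20RA 0.0352 and IL10RB 15.4, and IL20RA is therefore close to the floor of the table. IL10RB rose by 0.63 in WT at 24 h (adjusted p 0.00163, limma). IL20RB differed by 0.37 at 6 h (adjusted p 0.0479, limma), a call lost without 8 of the 11 libraries in turn (adjusted p up to 0.218, without WT 0 h replicate 1). STAT3 rose by 0.69 at 6 h (adjusted p 5.37e-05, limma), while SOCS3, its feedback inhibitor, fell by 1.23 at 6 h (SE 0.0634, adjusted p 1.98e-06) and 1.18 at 24 h. STAT3 was lower in ΔCRE at 6 h, by -0.32 (adjusted p 0.0160, limma), and this call was lost without 3 of the 4 libraries at 6 h in turn (adjusted p up to 0.109, without WT 6 h replicate 1). Differences of IL20RB and IL10RB between genotypes were 0.13 and 0.23 at 6 h and 0.17 and 0.25 at 24 h, and none passed in limma (adjusted p 0.247 to 0.605).

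**Figure D1:**
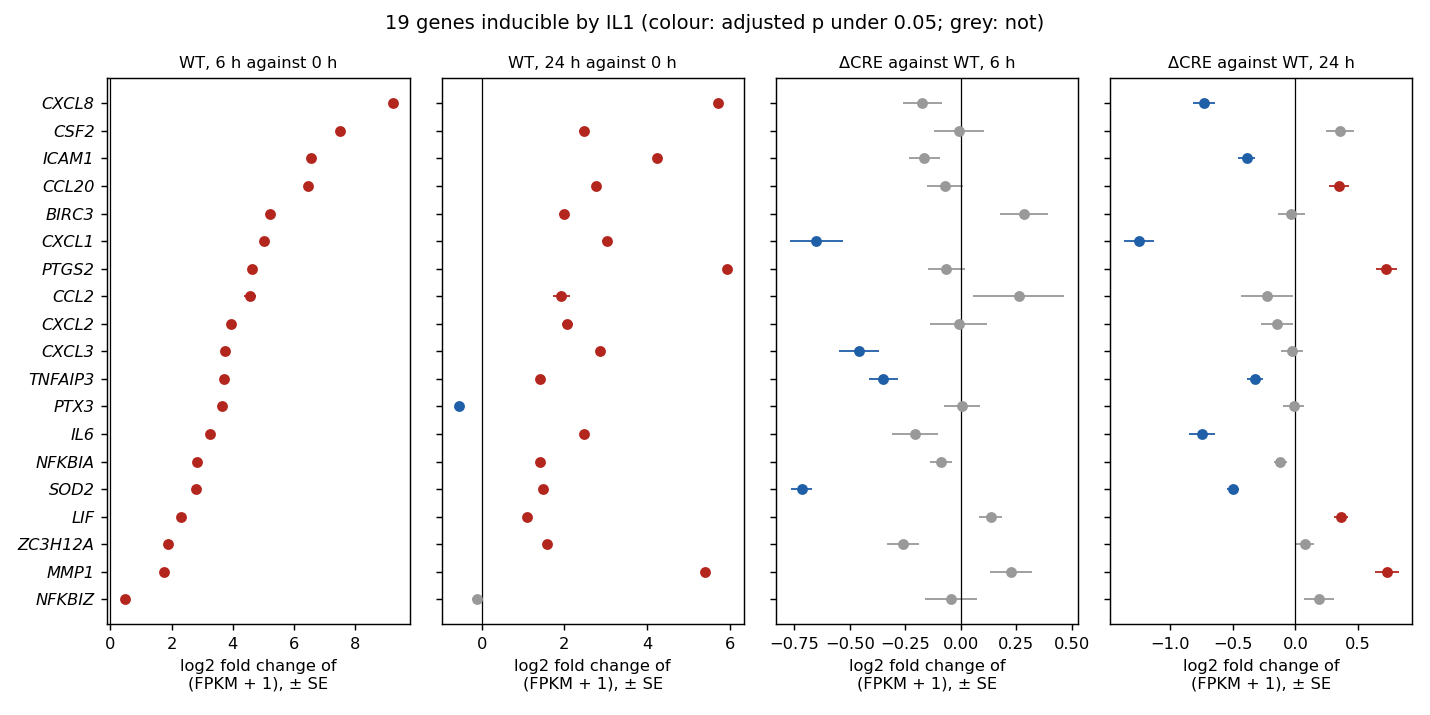
Log2 fold change of FPKM + 1, with its SE from limma (horizontal axes, each on its own scale), for the 19 tested genes of a list inducible by IL1 (vertical axis), in 4 comparisons, with genes past an adjusted p of 0.05 in red where higher and blue where lower. All 19 lie to the right of 0 in WT at 6 h, while between genotypes 4 are lower at 6 h, and 4 are higher and 6 lower at 24 h.

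Genes that IL1 is known to induce may also respond to the stimulus itself. No library had IL1 alone or IL1 blocked, so these cannot be told apart, and the rise is no measure of IL1 signalling. In WT all 19 tested of 22 rose at 6 h, and at 24 h 17 rose, PTX3 fell by 0.56 (adjusted p 0.000563, limma) and 1 did not pass. CXCL8, a neutrophil chemokine, rose by 9.25 at 6 h (SE 0.0878, adjusted p 1.39e-10, limma), CSF2, a growth factor of myeloid cells, by 7.53 and ICAM1, an adhesion receptor, by 6.57. The largest rises at 24 h were PTGS2, the inducible cyclooxygenase, by 5.92, CXCL8 by 5.72 and MMP1, a collagenase, by 5.39.

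Between genotypes the list was split. At 6 h 4 of the 19 were lower in ΔCRE and 0 higher, with the mitochondrial dismutase SOD2 at -0.72 (SE 0.0485, adjusted p 0.000128, limma) and the chemokines CXCL1 at -0.65 (adjusted p 0.0124) and CXCL3 at -0.46 (adjusted p 0.0160). SOD2 read 234.9 and 237.6 FPKM in WT and 145.7 and 141.0 in ΔCRE, and its call held without any 1 of the 11 libraries. The call of CXCL1 was lost without any 1 of the 4 libraries at 6 h and that of CXCL3 without 3 of them in turn (adjusted p up to 0.105 and 0.129, limma, both without WT 6 h replicate 1). At 24 h 4 were higher, with MMP1 at 0.73 (adjusted p 0.00407, limma), PTGS2 at 0.73 (adjusted p 0.00245) and LIF, a cytokine of the IL6 family, at 0.36 (adjusted p 0.00698), and 6 were lower. CXCL1 stood at -1.25 (SE 0.1201, adjusted p 0.00122, limma), IL6 at -0.74 (adjusted p 0.00580) and CXCL8 at -0.73 (adjusted p 0.00305). PTGS2 read 89.6 and 95.0 FPKM in WT and 150.0 and 156.6 in ΔCRE at 24 h, and CXCL1 11.7 and 9.63 against 4.40 and 3.43. LIF lost its call without WT 24 h replicate 1 (adjusted p 0.0665, limma) and IL6 without ΔCRE 24 h replicate 2 (adjusted p 0.0561). At 24 h IL1B itself stood at 64.9% of WT.

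Over all 6 lists, 10 of the 65 tested genes were lower in ΔCRE at 6 h and 0 higher, against 6.22% and 3.62% of all features. At 24 h 8 were lower and 4 higher, against 3.97% and 2.35%. The lists were drawn up with earlier results known, so nothing is read from these shares. The median difference of the 65 was -0.04 at 6 h and 0.0007 at 24 h, against 0.013 and 0.0119 over all features. A change of the genotype difference from 6 h to 24 h was called by limma for 0 of the 65, with 16 at an unadjusted p under 0.05, and for 0.142% (upward) and 0.0178% (downward) of all features. The count at 6 h fell from 10 to 2 without WT 6 h replicate 1, to 3 without WT 6 h replicate 2 and to 4 without ΔCRE 6 h replicate 2. That at 24 h fell from 12 to 7 without WT 24 h replicate 1 or ΔCRE 24 h replicate 2. With the library shown apart in the fit, both counts were 0. The log2 differences were the same in that fit, for example -0.95 for SIGIRR at 6 h and -1.25 for CXCL1 at 24 h. What changed was the estimate of spread that all groups share.

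Of 12 genes listed near IL24 on chromosome 1 and near IL1A, IL1B and IL1RN on chromosome 2, 10 were tested, with 5 rising and 1 falling in WT at 6 h and 3 rising and 2 falling at 24 h. Beside FAIM3, the phosphate transporter SLC20A1, on the side of IL1B and IL1A, rose by 0.85 at 6 h (adjusted p 1.74e-05, limma), then by 1.02 at 24 h. CKAP2L, a spindle protein gene that lies between SLC20A1 and IL1A, fell by 0.66 at 24 h (adjusted p 5.67e-05, limma). YOD1, a deubiquitinase near IL24, fell by 0.58 at 6 h and by 1.16 at 24 h (adjusted p 0.00612 and 0.000121, limma). None of the 10 passed between genotypes, with 2 at 6 h and 3 at 24 h at an unadjusted p under 0.05 in limma.

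For the 4 genes with a mean of at least 1 FPKM, the tested features most like them over the 11 libraries were found by Pearson's r of log2(FPKM + 1), given as a description, since the libraries share 6 groups and 0 h stands far from the stimulated times. IL1B ran most closely with NAGS (r = 0.996), HERC2P2 (0.995) and GRAMD3 (0.994), and IL24 with ITGA5 (0.989), IRF2 (0.986) and IKBKE (0.985). IL18 ran with RND3 (0.991), CCNB2 (0.978) and PGGT1B (0.977), and IL1RAP with MLF1 (0.891), TMEM50A (0.891) and COPB1 (0.889). NAGS, the first of them, read 7.40 and 7.85 FPKM in WT at 6 h and 5.09 and 5.11 in ΔCRE. IL1B and IL24 had an r of 0.953 with each other, and ETS1 an r of 0.550 with IL1B and 0.715 with IL24.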

How the data were processed

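RNA of 12 MDA-MB-231 samples was sequenced after a stranded mRNA preparation. The authors mapped reads to hg19 with TopHat and estimated FPKM per gene with Cufflinks, and deposited 1 FPKM table. Per the submitters' processing notes, FastQC and cutadapt were also used. A strand setting for counting is not given in the sources used here, and no fragment counts were in the table. 2 columns had a digit in place of a letter in their names and were matched to the only fitting sample. 405 features name more than 1 gene.

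The 7 genes and all lists were chosen with earlier results of these data known. Features with a mean of at least 1 FPKM over 11 libraries, without ΔCRE 0 h replicate 1, were fitted as log2(FPKM + 1) in 1 model of 6 groups with limma 3.58.1 (lmFit, eBayes with trend; R 4.3.3), with Benjamini-Hochberg adjustment over 11256 features and a threshold of 0.05. With a pseudocount of 1, fold changes of low genes are understated. The 7 genes got no test. ΔCRE at 0 h kept 1 library, so no genotype test was made there. Per list, direction and contrast the 3 called genes with the largest log2 fold change were named, besides receptor genes and the 3 features most like each member. Values were handled in Python 3.11.15 with pandas 2.3.3 and numpy 2.4.6 and plotted with matplotlib 3.10.9. The fit was tested on simulated data. Depth was gauged from steps in low values, features with a mean under 0.15 FPKM, of which 71.6% to 79.2% lay at ratios of whole numbers up to 6 within 0.03 on the log2 scale. Steps of single genes were taken where every value under 30 steps lay within 0.1 step or 1.5% of a whole number. Several step sizes were tried per gene and the wider limit applied, so the steps of IL1A and IL1R1 are uncertain. Alternatives were the pseudocount, the filter, quantile normalization, TPM scaling, the trend, a replicate block, all 12 libraries and leaving out each library.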

Additional observations from a re-analysis of the deposited data

Results flagged for a closer look

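IL24 moved in opposite directions from 6 h to 24 h, by -0.35 on the log2(FPKM + 1) scale in WT and by 0.51 in ΔCRE, in both libraries of each genotype. The difference was not tested, since the gene was chosen with its values known. ETS1 changed its genotype difference from 6 h to 24 h by 0.84 (limma interaction term, adjusted p 0.0247). The value was the same with ΔCRE 0 h replicate 1 in the fit, but the call was lost (adjusted p 1, limma). It was also lost without WT 6 h replicate 2 (0.81, adjusted p 0.0784, limma), ΔCRE 6 h replicate 2 (0.84, adjusted p 0.0800) or ΔCRE 24 h replicate 1 (0.88, adjusted p 0.0649), and held without any 1 of the other libraries.

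The library labelled ΔCRE 0 h replicate 1, which the comparisons leave out, held levels above every other library for IL1RN (7.24 FPKM), IL18 (49.6 FPKM), SIGIRR (25.8 FPKM), IL22RA1 (7.18 FPKM), IL10RB (81.1 FPKM) and IL1R2 (2.39 FPKM). Markers of gut epithelium summed to 857.6 FPKM, of leukocytes to 29.0 and of epithelium to 7437 in that library, against at most 0.156, 2.197 and 1063 in the other 11. Their part in these levels was not tested.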

How the results depend on the processing

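With ΔCRE 0 h replicate 1 in the fit (12 libraries), 26 of the pathway genes were called in WT at 6 h, 26 at 24 h, and 0 between genotypes at either time, and over all features the calls dropped from 4993 to 857, from 6151 to 1221, from 1107 to 20, from 712 to 17 and from 18 to 0 in the order of the report. The interaction called 1 pathway gene under the replicate block and 1 with a mean of at least 5 FPKM, against 0. Leaving out 1 library gave 2 to 12 calls between genotypes at 6 h, 7 to 12 at 24 h and 0 to 1 for the interaction, with 321 to 1097, 165 to 717 and 3 to 21 calls over all features. The interaction called 8 features without the trend and 11 after quantile normalization, against 18. Deviations between replicates 1 and 2 were at most weakly correlated across groups (r -0.068 to 0.202 over 10 pairs of groups, 2 above 0.1). The replicate block still raised the calls between genotypes over all features at 6 h (1805 against 1107) and 24 h (1407 against 712). The main fit did not pair libraries by replicate number, and whether the numbers mark a pairing was not tested further. TPM scaling put the median of all features in WT at 6 h at -0.1113, against -0.0014, and moved the calls there from 2620 higher of 4993 to 1895 of 5411. Quantile normalization gave 2317 of 5243, and TPM gave 185 higher of 740 at 24 h between genotypes, against 265 of 712. MMP1 at 24 h between genotypes lost its call with a pseudocount of 0.1, and MYD88 at 6 h with TPM or no filter. Of the differences of single genes, 1780 comparisons with the main value kept their call status or, for the 7 genes, stayed within the spread. A change of sign in an uncalled gene was counted among these. Of the others 114 lost a call, 2 gained one and 18 moved by more than the spread, and none reversed among those called. Part of this was fixed in advance. Leaving out a library outside the groups compared, or adding ΔCRE 0 h replicate 1, leaves a log2 difference as it was. The sign could not change there, and the 7 genes had to stay within the spread, so these counts overstate the stability.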
